A study of Homo sapiens and Mus musculus with 33 samples.

Results

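Crotonylation of lysine 18 of histone H3 (H3K18cr) was compared by ChIP-seq between HCT116 cells treated with MS275 and cells treated with DMSO. The comparison comprised all libraries that the labels give as H3K18cr ChIP of HCT116 cells, 3 per treatment, which are 6 of the 33 libraries of the series. They were quantified over 40266 regions (peaks) of the human genome GRCh38, of which 40033 had a mean of at least 10 scaled reads over the 6 libraries and were tested. HCT116 is a human colon carcinoma line. Cells received 5 µM MS275 (entinostat, an inhibitor of class I histone deacetylases) or DMSO as vehicle for 18 h and were fixed with formaldehyde before ChIP. 1 input library per treatment, 6 libraries of H3K18 acetylation (H3K18ac) over the same peaks and 4 RNA-seq libraries per treatment served for comparison. The methods section names 2 biological replicates for ChIP of these cells, whereas a figure legend gives 3 with a paired test. The series holds 3 per treatment, which the labels do not tie to separate cultures, and the p-values measure the spread between these libraries, which may be technical. All cells came from 1 line and 1 dose and time were used.

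Histone crotonylation is the addition of a crotonyl group, a short-chain acyl group derived from crotonyl-CoA, to lysines of histones. Acetyltransferases such as p300 can write it, class I histone deacetylases can remove it, and proteins with a YEATS domain bind it in preference to acetylated lysine. Like H3K18ac, it is known to mark active promoters and enhancers. In ChIP-seq the signal is the share of a library's reads that falls in a region, so a lower value means a lower share of reads and not fewer modified histones per cell.

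The sequences below are those of the promoters of ZNF511, USP11 and ITFG3, which had the largest called falls of H3K18cr after MORF4L2-AS1 when peaks averaging under 50 scaled reads were left out, of the one gene start among the 10 largest rises above that minimum (UNC5CL), and of 3 genes whose start the study assayed by ChIP-qPCR (CDKN1A, BBC3 and CLDN7), where the stretch printed need not hold the amplicon. Each is the 250 bases before the gene start in RefSeq (GRCh38.p14), 5′ to 3′ on the strand of the gene. Capitals mark CpG dinucleotides, whose density is taken up further on. ITFG3 was matched through its current RefSeq symbol, FAM234A. The positions are chr10:133308664-133308913 (ZNF511, plus strand), chrX:47232759-47233008 (USP11, plus strand), chr16:234571-234820 (ITFG3, plus strand), chr6:41039222-41039471 (UNC5CL, minus strand), chr6:36678464-36678713 (CDKN1A, plus strand), chr19:47232668-47232917 (BBC3, minus strand) and chr17:7263214-7263463 (CLDN7, minus strand), and each overlaps the peak of its gene.
ZNF511: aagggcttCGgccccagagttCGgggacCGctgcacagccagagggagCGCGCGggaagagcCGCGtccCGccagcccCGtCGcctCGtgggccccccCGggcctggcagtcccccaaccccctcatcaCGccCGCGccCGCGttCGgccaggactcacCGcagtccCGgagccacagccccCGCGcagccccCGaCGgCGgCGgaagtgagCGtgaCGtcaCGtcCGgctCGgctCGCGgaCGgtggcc
USP11: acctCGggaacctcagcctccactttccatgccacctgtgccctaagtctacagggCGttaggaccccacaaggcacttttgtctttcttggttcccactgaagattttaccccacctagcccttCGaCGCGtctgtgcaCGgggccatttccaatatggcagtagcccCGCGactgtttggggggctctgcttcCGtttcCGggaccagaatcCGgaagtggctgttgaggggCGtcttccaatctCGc
ITFG3: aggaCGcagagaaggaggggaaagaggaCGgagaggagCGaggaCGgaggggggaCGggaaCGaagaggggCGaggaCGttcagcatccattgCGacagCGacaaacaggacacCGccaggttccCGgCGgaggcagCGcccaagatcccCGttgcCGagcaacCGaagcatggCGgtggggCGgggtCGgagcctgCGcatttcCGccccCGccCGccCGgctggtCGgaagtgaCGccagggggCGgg
UNC5CL: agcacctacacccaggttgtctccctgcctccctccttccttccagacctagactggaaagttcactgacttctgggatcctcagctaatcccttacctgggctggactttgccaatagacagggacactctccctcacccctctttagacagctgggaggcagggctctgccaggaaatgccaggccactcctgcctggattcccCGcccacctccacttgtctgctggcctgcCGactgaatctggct
CDKN1A: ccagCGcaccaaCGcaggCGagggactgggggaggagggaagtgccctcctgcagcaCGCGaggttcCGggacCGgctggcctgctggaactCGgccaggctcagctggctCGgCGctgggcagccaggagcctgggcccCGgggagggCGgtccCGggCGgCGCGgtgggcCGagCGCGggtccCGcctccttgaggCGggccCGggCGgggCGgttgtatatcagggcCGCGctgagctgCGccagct
BBC3: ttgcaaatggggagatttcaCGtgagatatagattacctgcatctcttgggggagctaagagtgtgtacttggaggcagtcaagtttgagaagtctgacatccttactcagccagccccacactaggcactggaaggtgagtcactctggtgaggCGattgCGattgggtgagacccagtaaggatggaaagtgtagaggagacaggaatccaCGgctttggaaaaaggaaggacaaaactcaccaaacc
CLDN7: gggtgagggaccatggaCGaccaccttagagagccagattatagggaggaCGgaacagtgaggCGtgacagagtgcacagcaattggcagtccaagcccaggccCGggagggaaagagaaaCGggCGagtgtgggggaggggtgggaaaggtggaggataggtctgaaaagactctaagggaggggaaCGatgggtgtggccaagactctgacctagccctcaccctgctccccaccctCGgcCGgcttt
The 3 promoters with large falls held 35, 13 and 28 CpG dinucleotides, and that of UNC5CL held 2. CDKN1A, BBC3 and CLDN7 held 27, 4 and 9.

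Far from gene starts, the largest fall and the second largest rise are shown by the 300 bases at the centre of the peak, on the plus strand of GRCh38. The first, chr4:19739176-19739475, has RP11-94H6.1 as its nearest gene start. The second, chr3:72660301-72660600, has RP11-654C22.2.
RP11-94H6.1: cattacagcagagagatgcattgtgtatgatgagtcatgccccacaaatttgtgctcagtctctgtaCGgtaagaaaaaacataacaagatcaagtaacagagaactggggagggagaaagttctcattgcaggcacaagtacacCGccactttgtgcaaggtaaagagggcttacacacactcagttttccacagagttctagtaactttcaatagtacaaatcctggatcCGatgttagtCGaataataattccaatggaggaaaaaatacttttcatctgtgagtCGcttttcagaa
RP11-654C22.2: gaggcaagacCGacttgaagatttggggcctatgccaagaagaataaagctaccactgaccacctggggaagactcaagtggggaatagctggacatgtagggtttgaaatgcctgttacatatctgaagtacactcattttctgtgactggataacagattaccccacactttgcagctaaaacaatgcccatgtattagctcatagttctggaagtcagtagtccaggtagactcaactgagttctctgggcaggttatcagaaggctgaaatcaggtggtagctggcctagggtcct
These centres held 5 and 1 CpG dinucleotides. That of the largest distal rise, near CTD-2524L6.3, held 9, and that of the distal fall near ALG13 held 28.

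The H3K18cr libraries held 5730094, 5506020 and 4946115 scaled reads in peaks with DMSO and 3970630, 3902023 and 4338122 with MS275, where scaled reads are reads multiplied by 1 factor per library. All MS275 libraries were below all DMSO libraries, by 24.5% on average (exact permutation test, two-sided, p = 0.1). With 3 libraries against 3, 0.1 is the smallest p that such a test can give. DMSO replicate 3 and MS275 replicate 3 lay closest to the other treatment in this sum. The inputs held 2021030 and 1945427 scaled reads in the same peaks. In the RNA-seq data, all 7 epithelial markers (such as EPCAM and KRT8) were expressed, at 32.9 to 2496 CPM (counts scaled to library size). The 4 immune and 3 endothelial markers stayed at or below 0.908 CPM, and of the 4 fibroblast markers COL1A1 alone exceeded this (up to 16.6 CPM).

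On the authors' scaling, most of the H3K18cr calls were lower with MS275. Of the 40033 peaks, 9214 fell (23.0%) and 93 rose (0.232%) at an adjusted p under 0.05 (limma, Benjamini-Hochberg), and the median log2 change was -0.20. In 29.9% of peaks the MS275 libraries all lay below the DMSO libraries, and in 3.15% they all lay above. Of the peaks that fell, 72.8% lay within 1 kb of a gene start, where 30.1% of all tested peaks lay. Of the 93 that rose, 4 did, at FAM120AOS (1.24), SLC8A2 (0.77), KCNQ1 (0.69) and UNC5CL (0.58), the first 3 of which were named after their values were seen. The peaks that rose were weak, with a median of 30.4 scaled reads against 161 for those that fell and 66.3 for all peaks. TMM scaling, which sets the libraries to a common level over most peaks, added 0.24 to every log2 change and moved the median to 0.044, and 4405 peaks (11.0%) then fell and 732 (1.83%) rose. Unless TMM scaling is named, the changes below are on the authors' scaling. Differences between classes of peaks within a library do not depend on it. The count of calls depended on single libraries: without DMSO replicate 1 it was 6190, without MS275 replicate 1 it was 6193 and without MS275 replicate 2 it was 5921, against 9307 (23.2%) with all libraries. The 93 peaks that rose became 18 without MS275 replicate 2, 31 without MS275 replicate 1, 52 without MS275 replicate 3, 91 without DMSO replicate 2 and 130 without DMSO replicate 1 or 3.

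The question of where the mark changed was first addressed by the distance to the nearest gene start in the HCT116 RNA-seq table. Peaks within 1 kb of a gene start (TSS peaks, n = 12060) had median H3K18cr levels of 60, 56.7 and 48.1 scaled reads per kb in the DMSO libraries and 37.5, 36.7 and 39.96 in the MS275 libraries. The treatments did not overlap. Peaks over 10 kb from any start and outside genes (n = 7964) had 32.4, 31.8 and 28.8 with DMSO and 29.99, 29.9 and 31.2 with MS275, which overlapped.

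**Figure D1:**
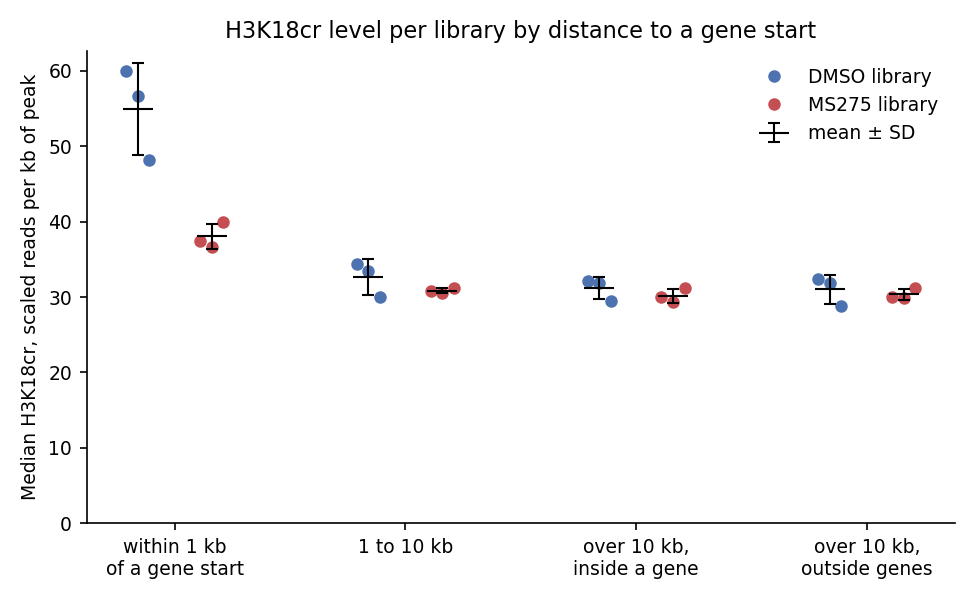
Median H3K18cr per library (scaled reads per kb of peak, y axis) in 4 classes of distance to a gene start (x axis), with DMSO libraries in blue, MS275 libraries in red, and bars for the mean ± SD of 3 libraries. The DMSO libraries ranged from 48.1 to 60 at TSS peaks, the MS275 libraries from 36.7 to 39.96, and the other classes between 28.8 and 34.4 in all 6 libraries.

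Of the TSS peaks 55.6% fell, and their median log2 change was -0.55. The share that fell was 11.8% at 1 to 10 kb (n = 7147, median -0.12), 8.54% inside genes over 10 kb from a start (n = 12862, median -0.084) and 7.06% outside genes (median -0.054). After TMM scaling 29.9% of TSS peaks and 2.17% of peaks outside genes fell, and 0.597% and 2.77% rose. Within each library, the mean log2 level of TSS peaks exceeded that of the 20826 peaks over 10 kb away by 1.56, 1.504 and 1.44 with DMSO and by 1.06, 1.04 and 1.10 with MS275. This excess was smaller in every MS275 library, with a mean difference of -0.43 (SD between libraries 0.046, exact permutation p = 0.1). Among TSS peaks, the 10899 that contained a start had a median change of -0.57, and the 1161 that ended within 1 kb of one had -0.22. Beyond 1 kb the median moved little, from -0.15 at 1 to 2 kb to -0.038 over 100 kb. Of the 20826 distal peaks, 1263 lay within 1 kb of a protein-coding start of the reference annotation that the RNA-seq table does not use, and their median change was -0.31.

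**Figure D2:**
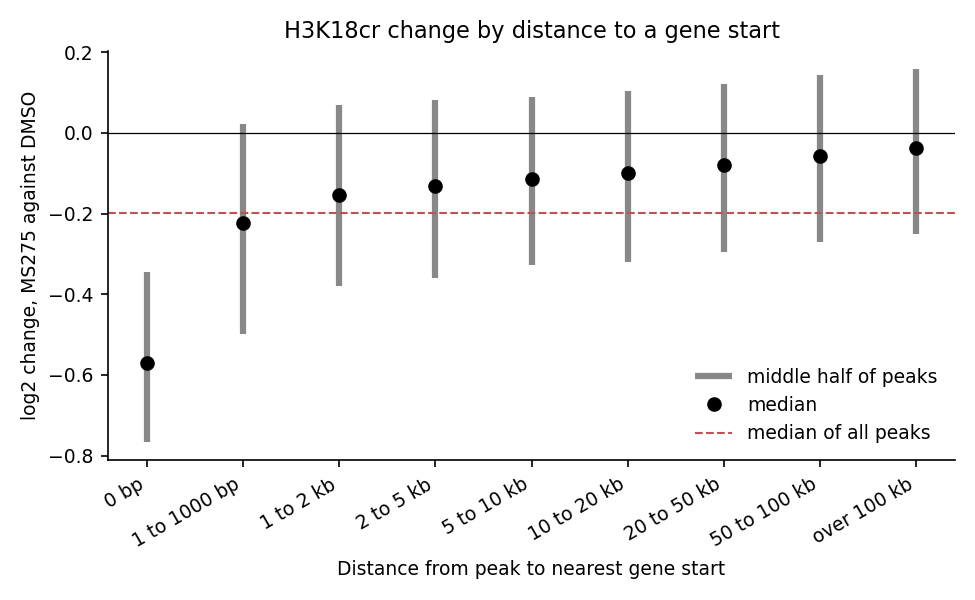
Log2 change of H3K18cr, MS275 against DMSO (y axis), by distance from the peak to the nearest gene start (x axis). Points are medians, bars the interquartile range of peaks, and the dashed line the median of all peaks (-0.20). Peaks containing a start had a median of -0.57, and those over 100 kb away -0.038.

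The change followed the starting level of the mark. Ordered by DMSO reads per kb, the lowest quintile of TSS peaks had a median log2 change of -0.094, with 3.48% called lower, and the highest quintile had -0.83, with 98.3% called lower. In the other peaks (n = 27973) the lowest quintile had +0.23 with 0% lower, and the highest -0.45 with 41.0% lower. Since the DMSO libraries enter both the order and the change, chance highs and lows in them tilt this relation. Ordering the peaks by a single DMSO library and measuring the change from the other DMSO libraries still gave -0.090 to -0.26 in the lowest and -0.73 to -0.84 in the highest quintile of TSS peaks. In the other peaks this gave -0.041 to 0.061 and -0.33 to -0.42. The apparent gain of the weakest other peaks was thus 0.061 or less in these orders.

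When peaks of like starting level were compared, most of the difference between TSS peaks and the other peaks was gone. The level was taken from H3K18ac in DMSO cells, which are libraries that do not enter the H3K18cr change. At 20 to 30 H3K18ac reads per kb the median H3K18cr change was -0.011 in 1107 TSS peaks and 0.017 in 14331 other peaks. At 30 to 40 reads per kb it was -0.20 in 1693 and -0.13 in 8889. At 50 to 60 reads per kb it was -0.51 in 1806 and -0.50 in 945, with 53.9% and 54.9% called lower. At 80 to 120 reads per kb it was -0.81 in 2332 and -0.80 in 317, with 98.4% and 97.8% called lower. Averaged over 6 such bands, the MS275 effect on the difference between TSS and other peaks was -0.044 (SD between libraries 0.071, exact permutation p = 0.5), against -0.42 (SD 0.043, p = 0.1) without bands. With bands of DMSO H3K18cr itself, the difference lay between -0.025 and -0.052 in all 6 bands, with the smallest possible p, 0.1, in the 2 highest. The bands were added after the data were seen. Across TSS peaks the change in H3K18cr had a Spearman correlation of -0.79 with the H3K18ac level (n = 12060), and of -0.48 across the other peaks (n = 27973). These peaks share libraries and depth and are not independent.

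**Figure D3:**
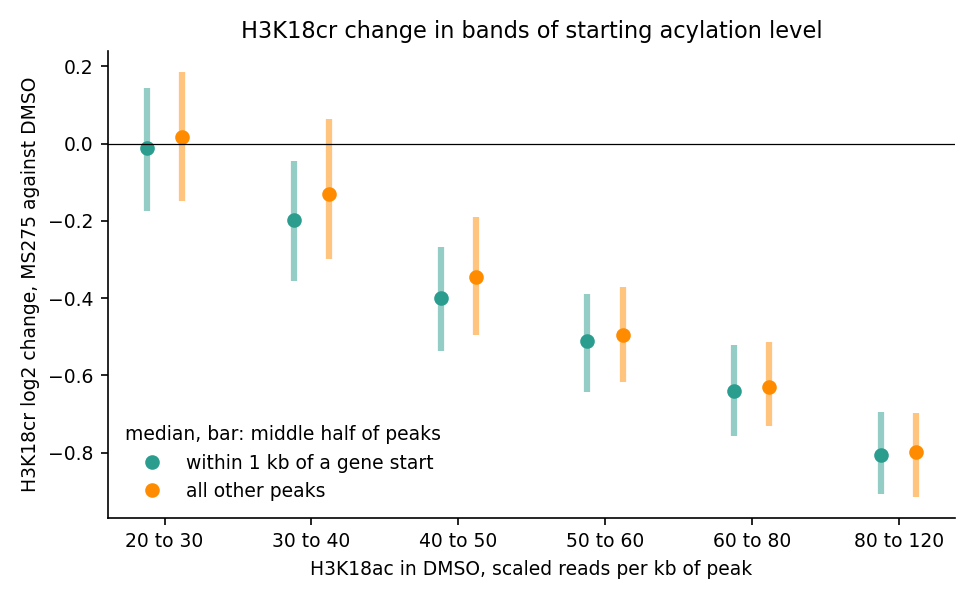
Log2 change of H3K18cr, MS275 against DMSO (y axis), in bands of H3K18ac level in DMSO cells (scaled reads per kb, x axis), for TSS peaks (green) and all other peaks (orange). Points are medians and bars the interquartile range of peaks. Both kinds of peak go from about 0 in the lowest band to -0.81 and -0.80 in the highest.

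Away from gene starts wide peaks had larger falls than narrow ones, whereas at TSS peaks the change was largest at intermediate widths. Among peaks away from gene starts the median log2 change was 0.037 under 1 kb of width (n = 7961), -0.16 at 2 to 4 kb (n = 6796) and -0.29 over 8 kb (n = 1120). Their median DMSO levels were 29.6, 33.6 and 45.0 scaled reads per kb. TSS peaks went from -0.19 under 1 kb (n = 592) to -0.60 at 2 to 4 kb (n = 6194) and back to -0.48 over 8 kb (n = 640), with levels of 33.3, 59.5 and 60.9. In each library, peaks of 4 to 8 kb exceeded those of 1 to 2 kb in mean log2 reads, and the excess changed with MS275 by -0.14 at TSS and by -0.18 elsewhere (SD 0.035 and 0.039, exact permutation p = 0.1 for each). When only peaks with a mean of at least 50 scaled reads were kept, these differences were -0.068 and -0.046.

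CpG-poor gene starts changed less than CpG-rich ones. With GC share in place of CpG density, the difference between the extreme quintiles of TSS peaks was 0.015 rather than -0.25. The quintile of TSS peaks with the fewest CpG per base had a median log2 change of -0.27, with 28.2% called lower, and the other quintiles had -0.54 to -0.63, with 52.4% to 67.6% lower. The CpG-poor quintile also had the lowest DMSO level, 38.4 scaled reads per kb against 56.4 to 60.6. Away from gene starts the change went from 0.002 in the CpG-poorest quintile to -0.28 in the richest. Sequence motifs were searched on both strands in the 300 bases at the centre of each peak. The ETS motif CCGGAAGT, held by 1.33% of all peaks, was in 422 TSS peaks, of which 77.3% fell (median -0.69), compared with 54.9% of TSS peaks without it (median -0.54). Their DMSO levels were 59.6 and 55.1 reads per kb. The AP-1 motif TGANTCA, bound by FOS and JUN proteins, was in 14.7% of all peaks. It was in 715 TSS peaks with a median of -0.41, compared with -0.55 in those without it, and their DMSO levels were 46.3 and 55.7. It also stands in the centre of the chromosome 4 peak printed above. The SP/KLF motif GGGCGG was in 23.3% of all peaks, in 53.5% of TSS peaks and in 10.4% of the others, and the other peaks with it had a median of -0.26 against -0.070 without. The motifs of NRF1 and those of NFY (CCAAT), TEAD (GGAATG), TCF/LEF (CTTTGAT) and FOX (TGTTTAC) were in 0.276%, 30.8%, 17.1%, 3.71% and 3.59% of peaks. TSS peaks with them had medians of -0.62, -0.55, -0.51, -0.44 and -0.51. Whether a motif relates to the change apart from the starting level was not tested.

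The X chromosome was singled out after the values of all chromosomes were seen, so its values are a description. Of the scaled reads in peaks, 0.948%, 0.950% and 0.967% lay on X in the DMSO libraries and 0.744%, 0.744% and 0.813% in the MS275 libraries, so the treatments did not overlap. They did not overlap on chromosome 8 either, where the share was higher with MS275 (6.71% to 6.78%, against 6.19% to 6.36% with DMSO). On X the inputs had 0.547% and 0.540%, and on chromosome 8 they had 7.71% and 7.84%. On both, every MS275 library lay between the DMSO libraries and the inputs. The same held for the share of reads in TSS peaks. It was 48.3% to 49.2% with DMSO, 42.7% to 43.3% with MS275, and 39.5% and 39.0% in the inputs. Whether the shifts on X and chromosome 8 are particular to these chromosomes was not tested. The 450 X peaks away from gene starts had median levels of 39.2, 38.7 and 33.3 scaled reads per kb with DMSO and 25.5, 24.97 and 28.1 with MS275. Their median log2 change was -0.52 and 28.0% fell, whereas autosomal peaks of this kind had -0.081 and 8.64%, and no autosome was below -0.21. TSS peaks had -0.75 on X (n = 389) and -0.54 on the autosomes (n = 11671). X peaks also had the higher level over input, with a median log2 ratio of 1.89 against 0.95 away from gene starts and of 2.26 against 1.61 at TSS. In the highest quintile of level over input, X and autosomal TSS peaks had -0.85 (n = 228) and -0.82 (n = 2184). Away from gene starts they had -0.57 (n = 340) and -0.38 (n = 5255).

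**Figure D4:**
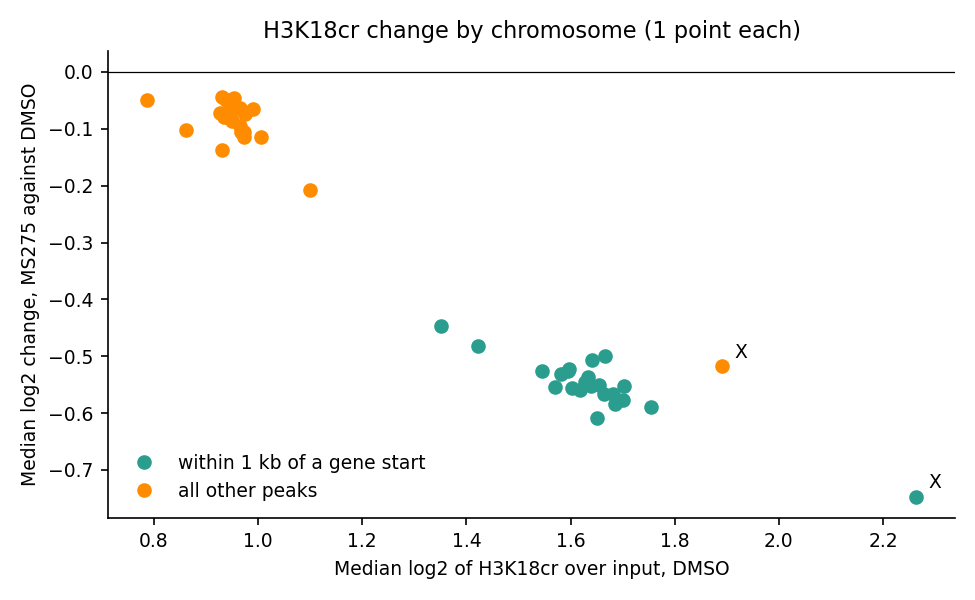
Median log2 change of H3K18cr (y axis) against the median log2 level over input in DMSO cells (x axis), 1 point per chromosome, for TSS peaks (green) and all other peaks (orange). The X chromosome lies at the right in both, at -0.75 for TSS peaks and -0.52 for the others.

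Gene starts of highly expressed genes had larger falls in their share of H3K18cr reads. Ordered by CPM per kb in DMSO cells, the TSS peaks of the lowest quartile of genes with counts had a median log2 change of -0.33, followed by -0.54, -0.62 and -0.68 in the highest quartile. The shares that fell were 31.8%, 54.6%, 66.6% and 77.5%. TSS peaks of genes without a count (n = 530) had -0.10, with 12.5% lower. Within each library the highest quartile exceeded the lowest in mean log2 level, and this excess changed with MS275 by -0.34 (SD 0.028, exact permutation p = 0.1). DMSO levels rose along the same order, from 43.2 to 65.7 scaled reads per kb. Within quintiles of starting level the order by expression was kept but narrower, from -0.064 to -0.27 in the lowest quintile and from -0.79 to -0.85 in the highest. These quintiles come from the DMSO libraries that also enter the change, and match the level only in part.

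Promoters of genes whose RNA rose had smaller falls in their share of H3K18cr reads. The RNA-seq replicates were treated as pairs by their number, a pairing that the labels do not state. With the number as a block 1171 of 14961 genes rose (7.83%) and 980 fell (6.55%) in the edgeR quasi-likelihood test. The calls on RNA given here rest on this block. Without the block 1 gene (0.00668%) was called, and 987 had an unadjusted p under 0.05. TSS peaks of genes whose RNA fell (n = 832) had a median H3K18cr change of -0.72 with 83.1% lower, those of genes not called (n = 8523) had -0.59 with 62.0% lower, and those of genes whose RNA rose (n = 983) had -0.37 with 36.2% lower. For the 160 of these whose RNA rose over 2-fold, the median levels were 41.0, 39.2 and 33.1 scaled reads per kb with DMSO and 36.5, 37.0 and 36.0 with MS275. These overlapped, the median log2 change was -0.024, and 6.88% fell. None of the 983 was called higher, where 0.0332% of all TSS peaks were, and after TMM scaling 1.22% were, against 0.597%. In quintiles of RNA log2 change without the block, the medians were -0.66, -0.68, -0.62, -0.55 and -0.35 from the most lowered to the most raised genes, and the Spearman correlation was 0.33 over 10338 TSS peaks.

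**Figure D5:**
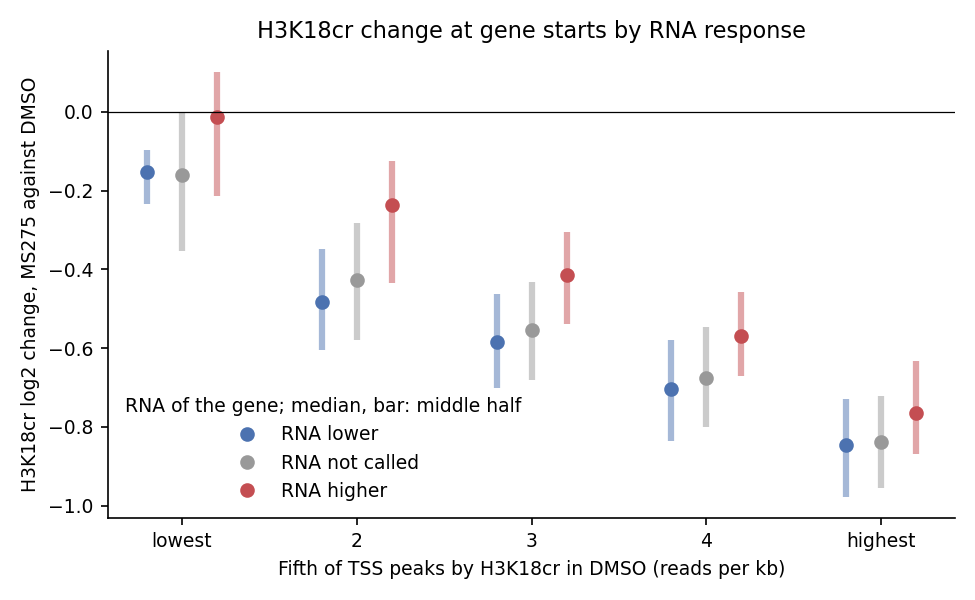
Log2 change of H3K18cr at TSS peaks (y axis) in quintiles of DMSO H3K18cr level (x axis), split by whether the RNA of the gene fell (blue), was not called (grey) or rose (red) with the replicate number as a block. Points are medians and bars the interquartile range of peaks. The red point lies above the blue one in each quintile, by less at the highest level (-0.77 against -0.85) than at the second (-0.24 against -0.48).

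Genes with raised RNA began with less H3K18cr, at a median of 38.0 scaled reads per kb for those that rose over 2-fold and 53.3 for the rest, against 68.5 for genes whose RNA fell up to 2-fold. Within quintiles of starting level the difference was smaller but in the same direction. It was 0.24 in the second quintile (282 and 103 genes, SD between libraries 0.040, exact permutation p = 0.1) and 0.095 in the highest (126 and 338 genes, SD 0.067, p = 0.3). Averaged over the quintiles it was 0.15 (SD 0.027, exact permutation p = 0.1), compared with 0.34 without regard to level. The quintiles come from the DMSO H3K18cr libraries that also enter the change. Level was not matched further within a quintile, so 0.15 is only partly adjusted for it.

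The 10 largest falls, chosen among called peaks with a mean of at least 50 scaled reads, no overlap of libraries and a width of up to 20 kb, ran from -1.74 to -1.42 on the log2 scale. 9 lay at a gene start and 4 on X, and each was called under TMM scaling, with edgeR, and when any library or replicate number was left out. With DESeq2, USP11 was not called (adjusted p = 0.123), and IGBP1 and RP11-94H6.1 had no adjusted p. The values used for this choice are given as a description. The largest was at MORF4L2-AS1, an antisense gene in MORF4L2 (chrX:103685251-103686900), with 92.0, 108 and 116 scaled reads in the DMSO libraries and 29.2, 17.0 and 61.7 in the MS275 libraries. The peak of ZNF511, a zinc finger gene (chr10:133307701-133309500), also contains the start of PRAP1 and had 160, 160 and 206 scaled reads with DMSO and 45.0, 59.5 and 77.2 with MS275 (-1.56 ± 0.20 SE, limma adjusted p = 1.36e-05). The treatments did not overlap at either. The start of MORF4L2-AS1 itself lies 384 bp outside the peak, its RNA is listed at 0 CPM, and the peak contains a protein-coding start of the reference annotation.

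USP11, a deubiquitinase gene on X (chrX:47232001-47234700), had 177, 186 and 302 scaled reads with DMSO and 60.7, 46.7 and 144 with MS275, a log2 change of -1.53 ± 0.26. ITFG3 had 121, 127 and 181 with DMSO and 50.6, 34.0 and 71.5 with MS275 (-1.50 ± 0.22). MS275 replicate 3 was the highest of its treatment at all 4 of these peaks. Falls of -1.49 to -1.43 were at IGBP1 (a regulator of PP2A-type phosphatases), MRPS21 and ATAD3A (a mitochondrial ribosomal protein and a mitochondrial membrane ATPase), EMD (emerin of the inner nuclear membrane) and ATP13A1 (a transporter of the endoplasmic reticulum). The RNA of ATAD3A also fell, by 0.30 on the log2 scale (adjusted p = 0.0225 with the block, edgeR). RNA of the other 7 with a fitted value was not called, with log2 changes of -0.35 to 0.20.

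The remaining peak of the 10, nearest to RP11-94H6.1 at a distance of 14141 bp, was at chr4:19738201-19740450. It had 89.0, 79.2 and 101 scaled reads with DMSO and 36.0, 22.7 and 44.9 with MS275, a log2 change of -1.42 ± 0.23 (limma adjusted p = 5.88e-05). The next falls over 10 kb from a gene start were in ALG13 on X (-1.25 ± 0.20), near RP11-164O23.7 on chromosome 1 (-1.25 ± 0.22), near LINC01204 on X (-1.23 ± 0.18) and near RP11-495P10.6 on chromosome 1 (-1.23 ± 0.20). That of ALG13, an N-glycosylation gene, contains a protein-coding start of the reference annotation, whereas the start in the RNA-seq table is 14440 bp away. All 5 of these falls were called when any library was left out.

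The 10 largest rises chosen by the same limits, which leave out FAM120AOS, SLC8A2 and KCNQ1 with means under 50 scaled reads, ran from 0.55 to 0.85 and started low, at 17.8 to 26.7 scaled reads per kb, compared with 39.8 to 161 for the 10 falls. All 10 were called under TMM scaling, and none kept its call when each replicate number was left out in turn. The largest, in NR2E3 (a photoreceptor nuclear receptor gene) and nearest to the start of CTD-2524L6.3 (chr15:71806351-71808150), had 51.0, 28.7 and 35.6 scaled reads with DMSO and 67.5, 73.6 and 61.7 with MS275 (0.85 ± 0.23, limma adjusted p = 0.00505, up to 0.241 without 1 number). This peak is 10246 bp from a start of the RNA-seq table but 2404 bp from a protein-coding start of the reference annotation. The peak of chromosome 3 printed above, 108849 bp from a gene start, had 44, 49.1 and 35.6 with DMSO and 78.7, 85.0 and 60.3 with MS275 (0.80 ± 0.21). Further rises over 10 kb from a start were in PRKCE, a protein kinase C gene (0.67 ± 0.22), and near PKIA, an inhibitor of protein kinase A (0.60 ± 0.19).

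Above that minimum the one gene start among the 10 rises was that of UNC5CL, with 77.0, 53.2 and 63.4 scaled reads with DMSO and 100.1, 90.6 and 95.4 with MS275 (0.58 ± 0.19). The peak also contains the start of TSPO2 and lies in OARD1. DRAXIN, an axon guidance gene, had a peak 15472 bp from its start with a change of 0.55 ± 0.19, and its RNA rose by 1.53 (adjusted p = 0.00332 with the block, edgeR). Other rises were 0.60 near TMEM130, 0.59 in TLK2 and 0.58 near RP11-277J6.3.

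Each of the 5 TSS peaks with the highest H3K18cr levels per kb in DMSO cells fell. The peak in ACTG1, cytoplasmic gamma actin, had 2294, 2180 and 2161 scaled reads with DMSO and 1018, 1014 and 1361 with MS275 (-0.98 ± 0.15), and is listed under the overlapping gene RP13-766D20.2. FOSB, an AP-1 subunit, had 945, 975 and 886 with DMSO and 316, 309 and 534 with MS275 (-1.32 ± 0.17). MYADM, CARS2 with ING1, and YWHAZ, a 14-3-3 protein, changed by -1.33, -1.30 and -1.06. In all 5 the treatments did not overlap. Away from listed gene starts the highest peaks were near CTD-3252C9.4 (22350 bp wide, 3838, 3792 and 3916 scaled reads with DMSO and 1480, 1438 and 2275 with MS275, -1.19 ± 0.16), in VMP1 (-0.93 ± 0.17), PLEC (-0.99 ± 0.15) and FADS2 (-1.02 ± 0.16), and near KDM6B (-1.05 ± 0.18). Those in PLEC (plectin), in FADS2 (a fatty acid desaturase) and near KDM6B (a histone demethylase) lay within 1 kb of a protein-coding start of the reference annotation.

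Of the gene starts that the study assayed by ChIP-qPCR, CDKN1A, BBC3 and CLDN7 had a TSS peak, while ADAD1, a testis gene, had none. The 3 peaks each fell in their share of ChIP-seq reads, which does not give the amount of the mark there. The qPCR values of the study are a different measure and are not reported here. CDKN1A, the cell cycle inhibitor p21, had 460, 409 and 345 scaled reads with DMSO and 262, 255 and 285 with MS275 (-0.59 ± 0.16, limma adjusted p = 0.00536, up to 0.246 without 1 number), and 0.0539 under TMM scaling. Its RNA rose by 0.28 on the log2 scale (adjusted p = 0.0167 with the block, edgeR), whereas that of BBC3 and CLDN7 fell by 0.65 and 0.23 (adjusted p = 0.00865 and 0.0385). BBC3, the p53 target PUMA, had 918, 830 and 823 with DMSO and 487, 482 and 558 with MS275 (-0.75 ± 0.15, adjusted p = 0.00033, up to 0.0701 without 1 number). CLDN7, a tight junction claudin, had 766, 820 and 806 with DMSO and 378, 343 and 506 with MS275 (-0.98 ± 0.16, adjusted p = 5.36e-05, up to 0.0341). The treatments did not overlap at any of the 3.

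Gene groups were then read against all TSS peaks, of which 55.6% fell, with a median of -0.55. On the authors' scaling 0.0332% of all TSS peaks rose, and no group member was among them. Under TMM scaling 29.9% of all TSS peaks were called lower, and the groups' counts under it follow those on the authors' scaling. Without replicate 3, 11 of the members named below as not called were called lower (limma), namely RPL38, RPLP1, INCENP, TOP2A, PHLDA3, TJP3, PKP2, HDAC3, NDUFB10, PSMC5 and PSMD12. Immediate early genes fell most often, at 18 of 19 TSS peaks (14 under TMM, median -0.89), with FOSB at -1.32 and FOS at -1.18. ATF3 (-0.26 ± 0.17) was the one not called, and IER5 was at -0.59, with an adjusted p of 0.00823 that was 0.0908 under TMM scaling, 0.0983 with edgeR and up to 0.447 without 1 number. The RNA of IER5 rose by 0.27 (adjusted p = 0.0192 with the block, edgeR). Their median starting level was the highest of the groups, at 107 scaled reads per kb, against 55.3 for all TSS peaks.

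Genes of DNA replication fell at 34 of 37 TSS peaks (25 under TMM, median -0.79). FEN1, a flap endonuclease, had 372, 384 and 452 scaled reads with DMSO and 136, 152 and 199 with MS275 (-1.32 ± 0.17), and MCM7 of the replicative helicase changed by -1.16. GINS2 (-0.11 ± 0.18) and PRIM2 (-0.32 ± 0.22) were not called, and the RNA of PRIM2 rose by 0.36 (adjusted p = 0.0204 with the block, edgeR). The cytosolic ribosomal proteins fell at 65 of 73 (46 under TMM, median -0.77), led by RPL39 (-1.17) and RPS13 (-1.10), whereas RPL38 (-0.20 ± 0.15) and RPLP1 (-0.23 ± 0.20) were not called. Proteasome subunits fell at 25 of 30 (15 under TMM, median -0.68), among them PSMB2 (-1.08) and PSMD13 (-1.02), and PSMC5 (-0.33 ± 0.16) and PSMD12 (-0.37 ± 0.15) were not called. Nuclear genes of oxidative phosphorylation fell at 36 of 52 (18 under TMM, median -0.64), with NDUFA6 at -1.13 and NDUFA5 at -1.03, and COX6C (-0.13 ± 0.16) and NDUFB10 (-0.18 ± 0.18) were not called. The median starting levels of these 4 groups were 66.4, 68.5, 62.0 and 54.5 scaled reads per kb.

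The lists of genes that write, read and remove acyl marks mix enzymes with readers and corepressors. Acyltransferases and acyl readers fell at 20 of 25 TSS peaks (15 under TMM, median -0.80). KAT5, a MYST acetyltransferase, had 226, 285 and 260 scaled reads with DMSO and 74.2, 87.8 and 144 with MS275 (-1.38 ± 0.20), and YEATS4, which holds a YEATS domain, changed by -1.24. MLLT3, the YEATS protein AF9, was not called at 0.13 ± 0.18, and its RNA rose by 1.22 (adjusted p = 0.000547 with the block, edgeR). KAT2B was at -0.056 ± 0.23. Deacetylases and their corepressors fell at 26 of 33 (14 under TMM, median -0.63), led by the corepressor subunits SIN3A (-1.12) and RBBP4 (-1.07). HDAC9 (0.015 ± 0.22) and HDAC3 (-0.21 ± 0.18) were not called.

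Mitosis genes fell at 20 of 31 TSS peaks (12 under TMM, median -0.61), with ECT2 at -1.10 and KIF23 at -0.95, and INCENP (-0.17 ± 0.22) and TOP2A (-0.35 ± 0.21) were not called. Targets of p53 fell at 17 of 22 (8 under TMM, median -0.58), led by XPC (-1.20), a DNA repair gene, and MDM2 (-0.97), whereas ZMAT3 (-0.18 ± 0.18) and PHLDA3 (-0.30 ± 0.18) were not called. Genes of epithelial junctions and keratins fell at 16 of 24 (8 under TMM, median -0.52), with CLDN7 at -0.98 and F11R at -0.84 (KRT8 and KRT18 share 1 peak), and TJP3 (-0.25 ± 0.17) and PKP2 (-0.30 ± 0.16) were not called. RNA rose at named genes of either kind. That of F11R, whose peak fell, rose by 0.28 (adjusted p = 0.0174 with the block, edgeR), and that of TOP2A, ZMAT3, TJP3 and PKP2, whose peaks were not called, by 0.27, 0.57, 0.50 and 0.53 (adjusted p = 0.0168, 0.00293, 0.00946 and 0.00415).

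Wnt targets fell at 4 of 14 TSS peaks (median -0.31), among them CCND1 (-0.78 ± 0.15) and DKK1 (-0.59 ± 0.17), and under TMM scaling 1 was lower and 2 were higher. The limma adjusted p of CCND1 reached 0.0885 without 1 number. That of DKK1 was 0.0853 under TMM scaling and up to 0.373 without 1 number, and 0.0574 with edgeR. AXIN2, a feedback inhibitor of Wnt signalling, had 784, 753 and 568 scaled reads with DMSO and 761, 745 and 721 with MS275. RNF43, a ubiquitin ligase that removes Wnt receptors, had 2931, 2600 and 2043 with DMSO and 2625, 2539 and 2706 with MS275. Both overlapped between treatments, at 0.096 ± 0.15 and 0.071 ± 0.15, and were called higher under TMM scaling (adjusted p = 0.0467 and 0.0395, limma) and with edgeR (0.0479 and 0.0415). With DESeq2 the adjusted p was 0.0567 for AXIN2, which was not called, and 0.0499 for RNF43. The peak of RNF43 is 50850 bp wide. The RNA of AXIN2 rose by 0.75 and that of DKK1, whose peak fell, by 0.33 (adjusted p = 0.0184 and 0.00254 with the block, edgeR).

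Of the 40 neuronal genes 14 had a TSS peak and 3 fell (1 under TMM, median -0.34), TUBB3 (-0.62 ± 0.15) and SYT1 (-0.61 ± 0.18) among them. The limma adjusted p of SYT1 was 0.113 under TMM scaling and up to 0.408 without 1 number, and that of TUBB3 was up to 0.223 without 1 number. MAP2, a microtubule protein of dendrites, had 61.0, 56.0 and 80.4 scaled reads with DMSO and 65.2, 55.2 and 68.7 with MS275 (-0.050 ± 0.21), while its RNA rose by 1.78 (adjusted p = 4.95e-05 with the block, edgeR). ENO2 was at -0.026 ± 0.21, and its RNA rose by 0.78 (adjusted p = 0.00263). Interferon and MHC class I genes fell at 7 of 22 (3 under TMM, median -0.43), with ISG15 at -0.91 and TAPBP at -0.76 (PSMB8 and PSMB9 share 1 peak), and HLA-F (-0.071 ± 0.20) and DDX58 (-0.076 ± 0.20) were not called, and the RNA of HLA-F rose by 1.17 (adjusted p = 0.0032 with the block, edgeR). Genes of TGF-beta signalling and EMT fell at 11 of 22 (6 under TMM, median -0.48), with ID2 at -1.05 and ID1 at -1.02. SNAI2 (0.069 ± 0.17) and FN1 (-0.090 ± 0.17) were not called, and the RNA of FN1, fibronectin, rose by 1.15 (adjusted p = 0.00496 with the block, edgeR). Without 1 number the limma adjusted p of TAPBP, F11R and NDUFA5 reached 0.0855, 0.0685 and 0.0501, and with DESeq2 ISG15 and ID2 were not called (adjusted p = 0.108 and 0.0617). The median starting levels of the Wnt, neuronal, interferon and TGF-beta groups were 54.2, 47.5, 46.1 and 65.0 scaled reads per kb.

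The MS275 effect on H3K18cr was also compared with that on H3K18ac over the same peaks. No peak differed between the marks at an adjusted p under 0.05 (0 of 40033, 0.0%, limma interaction), and 724 had an unadjusted p under 0.05. With edgeR on the recovered reads 0 were called and 1310 had an unadjusted p under 0.05. A lack of calls with 3 libraries per group does not show that the marks responded alike. The H3K18ac libraries also spread widely, with 4462392, 5174442 and 6594160 scaled reads in peaks with DMSO. The excess of TSS over distal peaks was 1.44, 1.60 and 1.79 for H3K18ac with DMSO and 1.24, 1.04 and 1.08 with MS275, a mean difference of -0.49, where that of H3K18cr was -0.43.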

How the data were processed

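Reads were trimmed by the authors, mapped to GRCh38 with Bowtie2, freed of duplicates and quantified in SEQMONK over 1 list of MACS peaks; the libraries used to call that list are not given in the sources used here. They deposited log2 scaled read counts per peak. In every H3K18cr library 100% of these values were whole reads times 1 factor (within 0.01 read), with factors of 1 to 1.5468 and 2755164 to 5730094 reads in peaks. For RNA-seq they deposited raw read counts per gene (35608533 to 53415604 per library). The human mapping settings and the strand setting for RNA are not given in the sources used here.

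Peaks were tested with limma 3.58.1 (trend, no block) on the deposited log2 values after a minimum mean of 10 scaled reads. edgeR 4.0.16 and DESeq2 1.42.0 (R 4.3.3) were run on the recovered reads, and edgeR on RNA counts, with Benjamini-Hochberg adjustment at 0.05. The peak and RNA fits were tested on simulated data. Class differences were taken within each library and compared by two-sided exact permutation (12 such comparisons, adjusted p = 0.1 each). A TSS peak was named by the gene with the highest DMSO CPM whose start lay within 1 kb, and gene groups were read at each gene's own TSS peak. Python 3.11.15, numpy 2.4.6, pandas 2.3.3, scipy 1.17.1 and matplotlib 3.10.9 were used. Same-numbered RNA-seq libraries deviated together (correlations 0.226, 0.151, 0.433 and 0.46) and were treated as pairs.

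Peaks named were the ChIP-qPCR promoters, the 10 largest falls and rises, the 5 largest of each over 10 kb from a gene start, the 5 highest per kb at and away from starts, and per gene group the 2 largest falls and the 2 highest changes. Members and lists were chosen with earlier results of these data known. Tables of mouse colon were not used. 1 peak that this rule names is not reported here.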

Additional observations from a re-analysis of the deposited data

How the results depend on the processing

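The count of H3K18cr peaks called (9307) fell to 5137 after TMM scaling, 5514 with edgeR and 3378 with DESeq2, where 20180 adjusted p-values were missing. It was 10108 with edgeR and the authors' scaling, 9290 without a filter, 9703 of 23846 peaks with a mean of at least 50 scaled reads, and 13621 after subtraction of input. That subtraction used the 1 input of a treatment for all 3 of its libraries. The noise of the input is therefore not in those p-values and cannot be told apart from treatment. Of the calls 99% were lower, and 85.8%, 83.6% and 73.0% after TMM scaling, with edgeR and after subtraction of input. Leaving out 1 replicate number gave 2037 to 15126 and leaving out 1 library 5921 to 12593. The deviations of ChIP libraries of the same number had correlations of 0.108, 0.074 and 0.23 between treatments. Between numbers 1 and 2 these were 0.0684 and 0.0779, so those 2 did not clearly pair. Between number 3 and the others they were -0.163 to -0.121, so number 3 did go together across treatments. The replicate block gave 10652 calls, 10444 lower and 208 higher against 9214 and 93 without it. With TMM scaling it gave 9467, 7100 lower and 2367 higher against 4405 and 732. At the 91 peaks named by rule it changed no call. The median change was 0.044 with TMM scaling. The TSS minus distal difference (-0.43) was -0.35 at a mean of at least 50 and -0.34 from summed reads, and that against peaks outside genes -0.37 at a mean of at least 50. The difference of TSS peaks from all other peaks (-0.42) was -0.044 over bands of H3K18ac. The width differences were -0.068 at TSS and -0.046 elsewhere at that minimum. The difference between extreme quintiles of starting level (-0.73 at TSS, -0.72 elsewhere) was -0.60, -0.57 and -0.60 at TSS with bins from DMSO replicate 1, replicate 3 and all 6 libraries. Elsewhere it was -0.39, -0.40 and -0.34 with bins from DMSO replicates 1, 2 and 3, -0.46 from H3K18ac, -0.40 from all 6 libraries and -0.50 over input. With GC share in place of CpG the composition difference was 0.015 at TSS and -0.093 elsewhere. The RNA response difference (0.29 between extreme quintiles of RNA change) was 0.34 between genes called higher and lower with the block. It was 0.64 between RNA over 2-fold higher and RNA lower. The 0.34 became 0.15 over quintiles of level. X minus autosomes (-0.40) was -0.27 over quintiles of level over input, 3 of which held 13 to 19 X peaks. The cause of these shifts was not tested. Leaving out 1 number gave ranges of -0.29 to -0.14 (median change), -0.48 to -0.40 (TSS minus distal), -0.50 to -0.43 (TSS minus peaks outside genes), -0.15 to -0.14 and -0.21 to -0.17 (width), -0.76 to -0.71 and -0.78 to -0.67 (starting level), -0.26 to -0.22 and -0.33 to -0.25 (composition), -0.35 to -0.33 (expression), 0.28 to 0.31 (RNA response) and -0.48 to -0.36 (X). Log2 changes that turned sign after TMM scaling were COX6C 0.11, DDX58 0.17, ENO2 0.22, FN1 0.15, GINS2 0.13, HDAC3 0.028, HLA-F 0.17, INCENP 0.074, KAT2B 0.19, MAP2 0.19, NDUFB10 0.057, RPL38 0.045, RPLP1 0.010 and ZMAT3 0.059. With edgeR they were COX6C 0.12, DDX58 0.18, ENO2 0.18, FN1 0.17, GINS2 0.11, HDAC3 0.0045, HLA-F 0.19, KAT2B 0.11, MAP2 0.21, NDUFB10 0.018, RPL38 0.043 and ZMAT3 0.074. With DESeq2 they were COX6C 0.13, DDX58 0.18, ENO2 0.20, FN1 0.18, GINS2 0.12, HDAC3 0.016, HLA-F 0.19, INCENP 0.020, KAT2B 0.13, MAP2 0.19 (no adjusted p), NDUFB10 0.033, RPL38 0.050 and ZMAT3 0.073. Leaving out 1 number gave ranges that crossed 0 for AXIN2 (-0.029 to 0.16), DDX58 (-0.38 to 0.21), ENO2 (-0.19 to 0.091), GINS2 (-0.29 to 0.020), HDAC9 (-0.13 to 0.18), HLA-F (-0.18 to 0.039), KAT2B (-0.34 to 0.15), MAP2 (-0.12 to 0.039), RNF43 (-0.097 to 0.19) and SNAI2 (-0.053 to 0.21). None of these genes was called in the limma fit. No bias of antibody or of absolute amount can be told from scaled reads, and weak peaks rest on few reads.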
